A study of Rattus norvegicus with 6 samples.

Results

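The miRNAs described here are the rat miRNAs with a number of 1000 or more, such as miR-1956-5p, miR-3068-3p and miR-3585-3p, apart from 12 that were left out because they lie in one stretch of chromosome 6. They were chosen by name and position alone, and 125 of the 749 miRNAs in the count table belonged to them. Small RNA was sequenced from exosomes of bone marrow mesenchymal stem cells (MSCs) of Sprague-Dawley rats. MSC-Exo, 3 libraries, came from normal MSCs, and MSCTXL-Exo, 3 libraries, came from MSCs pretreated with 400 μg/mL of TXL for 24 h. TXL is Tongxinluo, a compound of traditional Chinese medicine, and the comparison asks which exosomal miRNAs differ once the parent cells have met it. The kit attaches a unique molecular identifier (UMI) to every RNA molecule before PCR, and a UMI is therefore 1 molecule, however often it was copied. Levels are given as CPM, the UMIs of a miRNA scaled to a common library size, after correction of the totals by trimmed means (TMM). Libraries are named by the numbers of their columns, 10, 12 and 13 in either group, whose meaning is not given in the sources used here. Separate cultures are not mentioned for them either. The p-values therefore describe the spread among these libraries, which may be technical.

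miRNA numbers are given in the order of discovery, and most of the high ones were found by deep sequencing, after the broadly conserved families had been named. A miRNA is cut from a hairpin whose arms are called 5p and 3p, and its seed, bases 2 to 8, does most of the target recognition. Such late-named hairpins come from several kinds of place: the opposite strand of an older miRNA locus, introns of protein-coding genes, and small nucleolar or Cajal body RNAs that are themselves cut into miRNA-sized pieces. Of the 125, 28 had a mature position that overlapped another miRNA on the opposite strand, and they are called antisense members below. The other 97 had no such partner. For 21 members the number was on a list, written from general knowledge, of numbers also in use for human miRNAs. The other 104 were not on this list, which may be incomplete, and conservation itself was not tested. RefSeq (GRCr8) held a mature sequence for 110 members, and these were 18 to 25 bases long. Their median GC content was 52.2%, beside 47.6% for the 572 other miRNAs with a sequence.

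The antisense members held most of the members' UMIs in 5 of the 6 libraries (72.5% to 92.4%, and 47.4% in MSC-Exo 10). Their sequences show why they are described as pairs: most are the reverse complement of an older miRNA over nearly their whole length, so that they have seeds of their own. The most abundant pairs by the member's UMIs, and the far less abundant pair of miR-3596b, are printed 5′ to 3′ from RefSeq (GRCr8). The high-numbered member comes first and its partner on the next line, with the seed in capitals.
miR-3588: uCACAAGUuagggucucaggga
miR-125b-5p: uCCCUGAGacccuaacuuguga
miR-3596a: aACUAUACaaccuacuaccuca
let-7a-5p: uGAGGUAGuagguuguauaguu
miR-3596d: cUAUACAAucuacuaccuca
let-7f-5p: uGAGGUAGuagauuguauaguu
miR-3596c: aCUAUACAaccuccuaccuca
let-7e-5p: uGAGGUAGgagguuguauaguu
miR-3596b: aACUAUGCaaccuacuaccu
let-7d-5p: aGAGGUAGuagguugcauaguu
miR-3556b: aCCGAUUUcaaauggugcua
miR-29c-3p: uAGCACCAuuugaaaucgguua
miR-3556a: cGAUUUCAgauggugcua
miR-29a-3p: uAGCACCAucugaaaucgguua
miR-3553: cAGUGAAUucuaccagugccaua
miR-183-5p: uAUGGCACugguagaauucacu
miR-3574: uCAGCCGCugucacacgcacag
miR-210-3p: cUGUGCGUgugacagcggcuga
miR-3590-5p: uGCCCUUUuaacauugcacug
miR-130a-3p: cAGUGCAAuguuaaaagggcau
In the coordinates of the deposited table, whose genome build is not given in the sources used here, miR-3588 and miR-125b-5p occupy the same bases, chr11:16097362-16097383, on the minus and the plus strand. The same holds for miR-3596a and let-7a-5p at chr8:45753280-45753301. Of the 28 pairs, 5 had identical positions and 22 overlapped by 20 bases or more. The let-7 partners share the seed GAGGUAG, whereas the members opposite them have 4 different seeds. The seed of miR-3596d is shared with 3p arms of let-7 hairpins and with miR-98-3p. It was 1 of 3 high-numbered seeds found among lower numbers, the others being those of miR-3065-5p (shared with miR-7a-1-3p) and miR-3573-5p (shared with miR-423-5p).

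The members without an antisense partner on which the comparison of the groups turned are printed in the same way, since no seed of theirs was found in a miRNA with a lower number.
miR-3585-3p: uGAACGGCccuuguuguga
miR-3068-3p: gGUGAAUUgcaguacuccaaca
miR-3068-5p: uUGGAGUUcaugcaaguucuaacca
miR-3084a-3p: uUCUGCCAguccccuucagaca
miR-1956-5p: aGUCCAGGgcugagucagcgga
miR-3473: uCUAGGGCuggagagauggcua
miR-3085: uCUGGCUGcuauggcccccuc
miR-3558-5p: cCAUAGAAgucaucccacagugcc
miR-3572: uUACACUUgcccuuuuuuccccag
The arms miR-3068-3p and miR-3068-5p come from 1 hairpin, which RefSeq lists under Snora58, a small nucleolar RNA gene within Alkbh1. miR-1956-5p lies within Eif4e, the gene of the cap-binding translation factor, on the same strand, and miR-3473 lies opposite to the strand of Zranb3, a DNA repair helicase gene. miR-3572 lies within Cnot3, which encodes a subunit of a deadenylase complex that shortens mRNA tails. miR-3084a-3p has 4 positions in the table, and miR-3084b-3p shares positions with it, so the split of reads between these near-identical copies is uncertain.

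The libraries held 382665 to 1792805 UMIs, and libraries 13 were the deepest of both groups. In these libraries 3 UMIs, about the upper 95% limit of the expected count where 0 were seen, amount to 1.95 to 7.50 CPM. All 7 mesenchymal marker miRNAs were present, with 311112 to 397575 CPM in MSC-Exo and 346401 to 396775 CPM in MSCTXL-Exo. miRNAs typical of other cells were low: 6 of blood summed to 336 to 451 and 215 to 333 CPM, 2 of endothelium to 1021 to 1406 and 809 to 1343 CPM, and 3 of muscle to 402 to 828 and 127 to 501 CPM. The single liver marker was at 149 to 178 and 107 to 252 CPM, the 7 epithelial markers at 49.8 to 90.9 and 38.9 to 102 CPM, the 2 neuronal at 25.4 to 71.5 and 17.5 to 69.5 CPM, and the 6 of embryonic stem cells at 11.3 to 50.3 and 18.8 to 27.5 CPM. None of these markers was at 0 in all libraries, and the part of other cells in the values below was not tested. 2 libraries stood apart: 28 of 392 tested miRNAs were over 2-fold higher in MSC-Exo 10 than in every other library and 17 in MSCTXL-Exo 12, so values without them are given for the results that rest most on either.

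The high-numbered miRNAs were a small part of the exosomal miRNA, and a few of them made up most of that part. Their share of all UMIs in MSC-Exo 10, 12 and 13 was 2.95%, 2.79% and 3.37%, and in MSCTXL-Exo 10, 12 and 13 it was 2.76%, 3.12% and 2.49%, so the groups overlapped. In mean CPM over the 6 libraries, 7 members reached 1000, 13 lay between 100 and 1000, 51 between 10 and 100, and 54 below 10. miR-3588, the antisense partner of miR-125b-5p, ranked 15 among all 749 miRNAs by mean CPM. miR-3596a and miR-3596d, opposite let-7a-5p and let-7f-5p, ranked 25 and 35, and miR-3556b, opposite miR-29c-3p, ranked 54. The first members without such a partner were miR-1956-5p at rank 55 and miR-3473 at rank 60. miR-3588, miR-3596a, miR-3596c, miR-3596d and miR-3556b together held 41.1% to 88.7% of the members' UMIs, depending on the library.

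**Figure D1:**
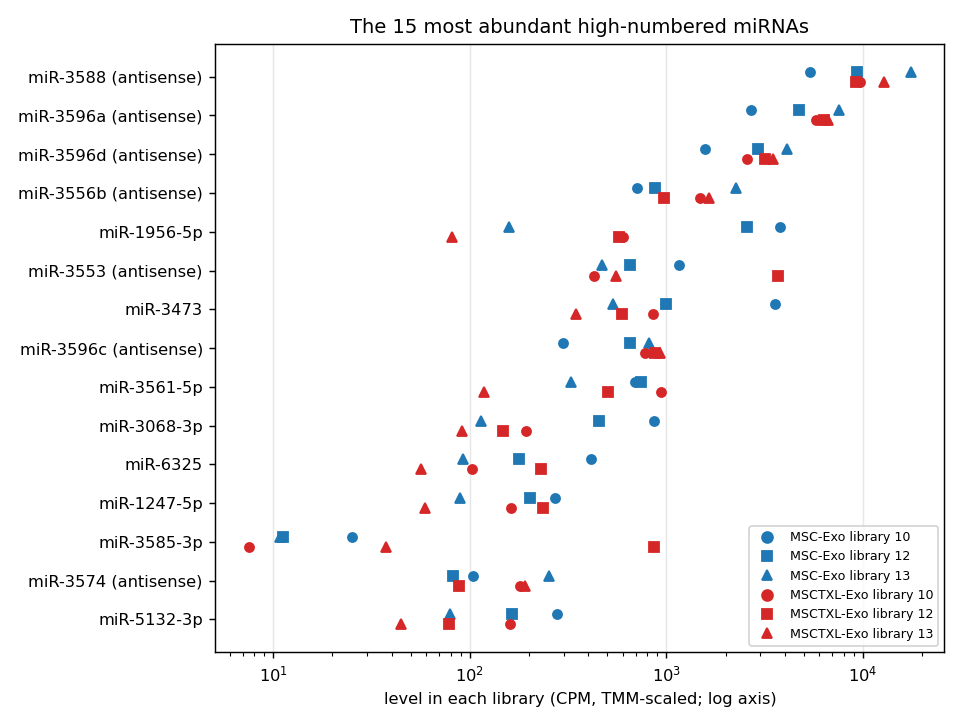
Level of the 15 most abundant high-numbered miRNAs in each of the 6 libraries (CPM, TMM-scaled, log axis; blue MSC-Exo, red MSCTXL-Exo, and circle, square and triangle for libraries 10, 12 and 13). miR-3588 lay at 5382 to 17624 CPM in every library, while miR-3585-3p lay at 862 CPM in MSCTXL-Exo 12 and at 7.50 to 37.6 CPM in the others.

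The share of the antisense members and that of the others moved apart between libraries. The antisense members took 1.40%, 2.02% and 3.11% of all UMIs in MSC-Exo 10, 12 and 13, and 2.23%, 2.51% and 2.30% in the MSCTXL-Exo libraries. The other members took 1.55%, 0.766% and 0.256% in MSC-Exo and 0.531%, 0.607% and 0.189% in MSCTXL-Exo. They were therefore lowest in libraries 13 of both groups, and within each library number they were lower in MSCTXL-Exo. Depth was greatest in the same libraries 13, and its part in these shares was not tested. Counting error was small beside these steps, since the exact (Clopper-Pearson) 95% interval of the antisense share was 1.36% to 1.43% in MSC-Exo 10. Such intervals cover counting error only.

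miR-3588 was the most abundant high-numbered miRNA in every library. It was at 5382, 9375 and 17624 CPM in MSC-Exo 10, 12 and 13, and at 9660, 9206 and 12804 CPM in MSCTXL-Exo. MSC-Exo spanned the whole range of MSCTXL-Exo, with its lowest value in library 10 and its highest in library 13. The log2 fold change of MSCTXL-Exo over MSC-Exo was −0.03 with a standard error (SE) of 0.41. For its partner miR-125b-5p, the most abundant miRNA of these exosomes, it was 0.16 with an SE of 0.22.

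miR-3596a, opposite let-7a-5p, was at 2689, 4704 and 7520 CPM in MSC-Exo 10, 12 and 13, and at 5772, 6358 and 6648 CPM in MSCTXL-Exo. Its log2 fold change was 0.33 (SE 0.37), and that of let-7a-5p, a member of a family that restrains growth and marks differentiated cells, was 0.27 (SE 0.18). Again the spread of MSC-Exo covered that of MSCTXL-Exo. miR-3596d was at 1572, 2928 and 4114 CPM in MSC-Exo and 2559, 3172.9 and 3494 CPM in MSCTXL-Exo, with a log2 fold change of 0.10 (SE 0.37) beside 0.06 (SE 0.19) for let-7f-5p. miR-3596c was at 299.6, 654 and 818 CPM in MSC-Exo and 777, 875 and 929 CPM in MSCTXL-Exo. It was higher in MSCTXL-Exo within all 3 library numbers, by 0.54 on the log2 scale (SE 0.40), and let-7e-5p by 0.35 (SE 0.22), but neither passed the test. In contrast to these 3, miR-3596b, opposite let-7d-5p, had only 21 UMIs in all libraries together.

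The 4 let-7 pairs thus differed widely in the member's count beside that of its partner. A count covers all positions of a miRNA, whereas each of these members has 1 position. Where the partner has more, the percentage is therefore not the antisense share at 1 position. How many positions each partner has is not given here. miR-3596a had 29358 UMIs over the 6 libraries, 15.5% of the 189062 of let-7a-5p. miR-3596c had 9.06% of the count of let-7e-5p and miR-3596d 4.96% of that of let-7f-5p. miR-3596b had 0.161% of the 13013 UMIs of let-7d-5p. The antisense count therefore did not simply follow that of the partner, since let-7f-5p had 315663 UMIs and let-7a-5p fewer, while their antisense members stood in the opposite order. The miR-29 family, which represses collagens and other matrix genes, showed the same unevenness. miR-3556b exceeded miR-29c-3p 3.92-fold (7007 against 1789 UMIs), whereas miR-3556a had 0.406% of the 124527 UMIs of miR-29a-3p and miR-3587 had 5 UMIs beside 5398 of miR-29b-3p. Unlike the let-7 members, miR-3556b has 2 positions and its count covers both. Its ratio to miR-29c-3p may therefore not be that at 1 position.

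Across all 28 pairs the partner had more UMIs in 20 and the high-numbered member in 8. Spearman's rho between the total UMIs of member and partner was 0.53, and Pearson's r of their log10 values was 0.64, given as a description over 28 pairs that share the same 6 libraries and, within a pair, the same stretch of genome. The widest gap toward the member was that of miR-3553, with 5515 UMIs, 46.3-fold the 119 of miR-183-5p, a miRNA known from sensory cells. MSCTXL-Exo 12 alone held 2990 of the 5515, beside 11 of miR-183-5p. By library, miR-3553 stood at 905% to 27182% of miR-183-5p, highest in MSCTXL-Exo 12. miR-3571, opposite the muscle miRNA miR-1-3p, had 172 UMIs beside 17. miR-3589 had 189 beside 40 of miR-505-3p, miR-3065-5p 188 beside 71 of miR-338-3p, and miR-3546 165 beside 47 of miR-208a-5p. miR-3120 had 366 UMIs beside 16 of miR-214-5p, but these mature positions overlap by only 1 base. miR-3574, opposite the hypoxia-induced miR-210-3p, had 783 beside 5160. Whether strand was used in the counting is not given in the sources used here. Without strand, reads of such a pair could not be told apart. The counts of pairs at identical positions differed, as for miR-3588 and miR-125b-5p with 56739 and 907419 UMIs. How reads at a shared position were assigned was not tested.

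**Figure D2:**
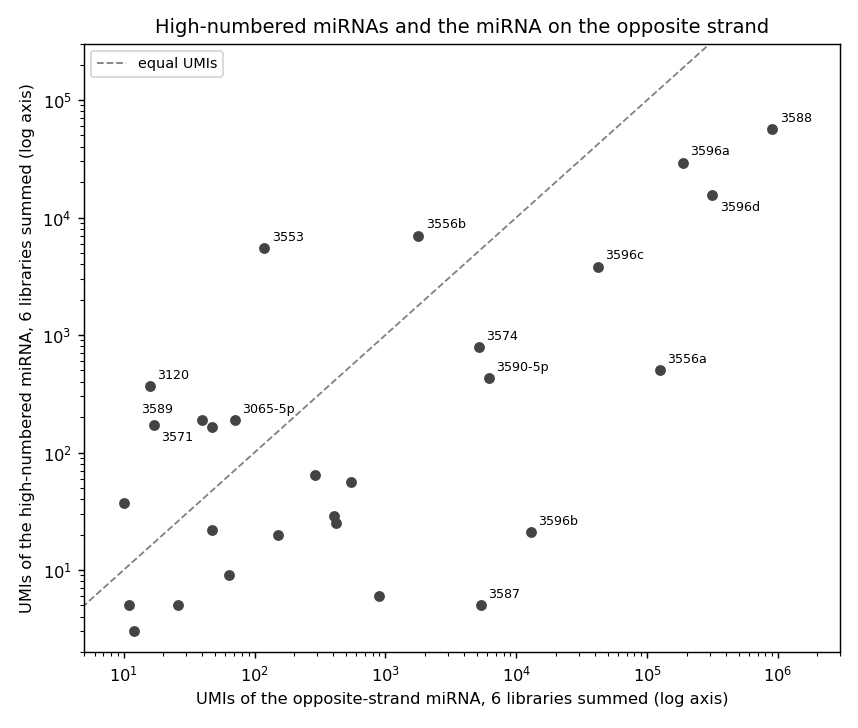
Total UMIs over the 6 libraries of each of the 28 antisense members (vertical, log axis) and of the miRNA on the opposite strand (horizontal, log axis), with a dashed line where both are equal. 20 pairs lie below the line, from miR-3588 with 56739 UMIs to miR-3587 with 5, and 8 lie above it, among them miR-3553 and miR-3556b.

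Within a pair, the member's count as a percentage of the partner's moved from library to library in a shared pattern. miR-3588 amounted to 3.91%, 5.64% and 8.95% of miR-125b-5p in MSC-Exo 10, 12 and 13, and to 5.05%, 6.36% and 5.75% in MSCTXL-Exo. miR-3596a amounted to 9.26%, 12.8% and 21.1% of let-7a-5p in MSC-Exo, and to 15.4%, 14.98% and 15.6% in MSCTXL-Exo. miR-3556b, whose count covers 2 positions, stood at 199%, 347% and 510% of miR-29c-3p in MSC-Exo, and at 388%, 391% and 385% in MSCTXL-Exo. In each of these the MSCTXL-Exo values lay inside the range of MSC-Exo, which ran from library 10, the lowest of all 6, to library 13, the highest. Of the 14 pairs whose member had at least 100 UMIs, 8 had this same lowest and highest library. miR-3574 was an exception, at 20.1%, 16.9% and 17.6% of miR-210-3p in MSC-Exo and 17.8%, 17.1% and 12.3% in MSCTXL-Exo. Both libraries also differed in depth, and the part of depth in the ratio was not tested.

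**Figure D3:**
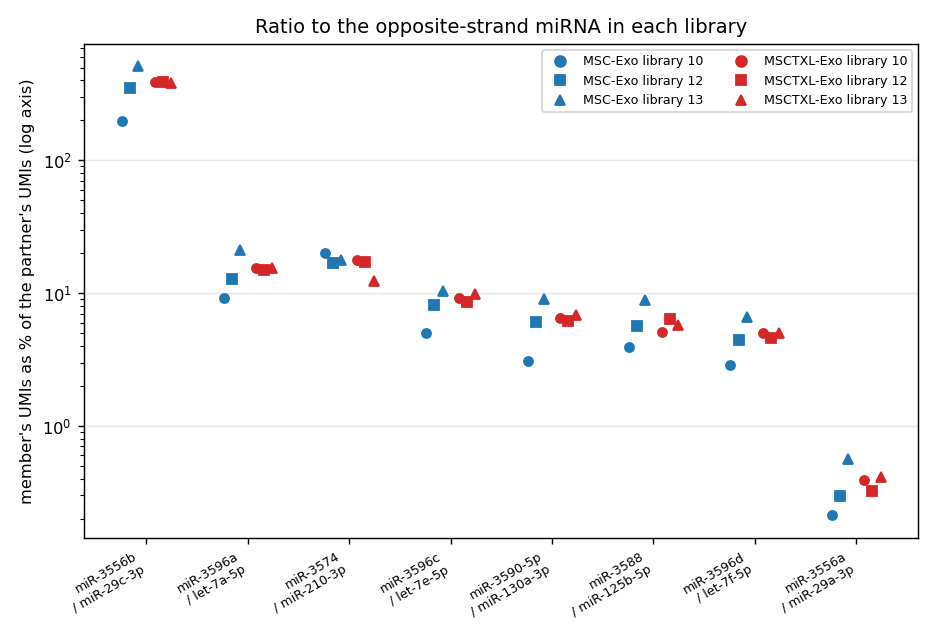
UMIs of 8 antisense members as a percentage of those of the opposite-strand miRNA in each library (log axis; blue MSC-Exo, red MSCTXL-Exo, and circle, square and triangle for libraries 10, 12 and 13). For miR-3588 the ratio ran from 3.91% in MSC-Exo 10 to 8.95% in MSC-Exo 13, around 5.05% to 6.36% in MSCTXL-Exo.

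Between the groups, 3 high-numbered miRNAs passed a fold change over 2 with an unadjusted p under 0.05: miR-3585-3p was higher in MSCTXL-Exo, and miR-3068-3p and miR-3084a-3p were lower. In these exosomes, fewer cells that release a miRNA and less of it per cell cannot be told apart. Of the 125 members 61 (48.8%) passed the filter on low counts, beside 392 of all 749 miRNAs (52.3%). The 3 called were 4.92% of the members tested, and over all tested miRNAs the share was 3.57% (1.79% higher and 1.79% lower). No member had an adjusted p under 0.05 in edgeR's quasi-likelihood test with Benjamini-Hochberg adjustment over all 392 miRNAs, where 0.0% were called. The smallest adjusted p of a member was 0.972, 3 members had an unadjusted p under 0.05, and DESeq2 and limma-voom also called 0 members after adjustment. The log2 fold change was positive for 23 and negative for 38 members, with a median of −0.17, beside 206 and 186 and a median of 0.03 over all miRNAs. Without MSC-Exo 10 the members' median was −0.02 and 1 member was called, without MSC-Exo 12 none, and without MSC-Exo 13 the number called was 11. Without MSCTXL-Exo 10, 12 or 13 it was 2, 3 and 4. Calls over all miRNAs also moved when 1 library was left out, and their range is given in the last section. These counts alone are therefore not a result about the members.

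miR-3585-3p was high in 1 library above all. It had 13, 8 and 10 UMIs in MSC-Exo 10, 12 and 13 (25.1, 11.3 and 10.8 CPM) and 3, 695 and 58 UMIs in MSCTXL-Exo (7.50, 862 and 37.6 CPM). The groups overlapped, because MSCTXL-Exo 10 was the lowest library of all. Its log2 fold change was 4.29 (SE 1.56, unadjusted p = 0.0257 in edgeR's quasi-likelihood test), and without MSCTXL-Exo 12 it was 0.67 and not called. Without MSC-Exo 12 it was 4.11 and not called either. When the library number entered as a replicate block it was 2.48 and not called. Its other arm, miR-3585-5p, had 0 to 6 UMIs per library.

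miR-3068-3p was at 864, 456 and 114 CPM in MSC-Exo 10, 12 and 13, and at 192, 148 and 91.5 CPM in MSCTXL-Exo. MSC-Exo 10 and 12 were above all of MSCTXL-Exo, whereas MSC-Exo 13 was not. Its log2 fold change was −1.74 (SE 0.70, unadjusted p = 0.0387 in edgeR's quasi-likelihood test), and −1.38 with the replicate block. It kept its direction without MSC-Exo 10, at −1.02, but was then no longer called. Without MSC-Exo 13 it was called, at −2.24, and without any 1 of the other libraries it was at −1.53 to −1.99 and not called. miR-3068-5p, cut from the other arm, was at 98.6, 87.4 and 65.0 CPM in MSC-Exo and 55.0, 364 and 103 CPM in MSCTXL-Exo, the lowest of all 6 in library 10 and the highest in library 12. Its log2 fold change of 1.06 (SE 0.69) did not pass the test, and it was −0.08 without MSCTXL-Exo 12.

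miR-3084a-3p was the only tested member whose 3 libraries of one group all lay on one side of the other group. It was at 92.8, 73.3 and 50.9 CPM in MSC-Exo 10, 12 and 13, and at 37.5, 33.5 and 12.3 CPM in MSCTXL-Exo. It was lower in MSCTXL-Exo within each library number. MSCTXL-Exo was lower by a log2 fold change of −1.41 (SE 0.53, unadjusted p = 0.0301 in edgeR's quasi-likelihood test), and −1.48 with the replicate block. It was called without MSC-Exo 13, MSCTXL-Exo 10 or MSCTXL-Exo 12, at −1.64 to −1.66. It was not called without MSC-Exo 10 (−1.22), MSC-Exo 12 (−1.39) or MSCTXL-Exo 13 (−1.07). Groups that did not overlap made up 1.64% of the members tested (1 lower, 0 higher), and 7.4% of all tested miRNAs (4.08% higher and 3.32% lower). The related miR-3084b-3p, which shares positions with it, was at 25.1, 14.1 and 10.8 CPM in MSC-Exo and 19.99, 89.3 and 11.7 CPM in MSCTXL-Exo, highest in library 12. Its log2 fold change was 1.31 (SE 0.81), and −0.13 without MSCTXL-Exo 12.

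**Figure D4:**
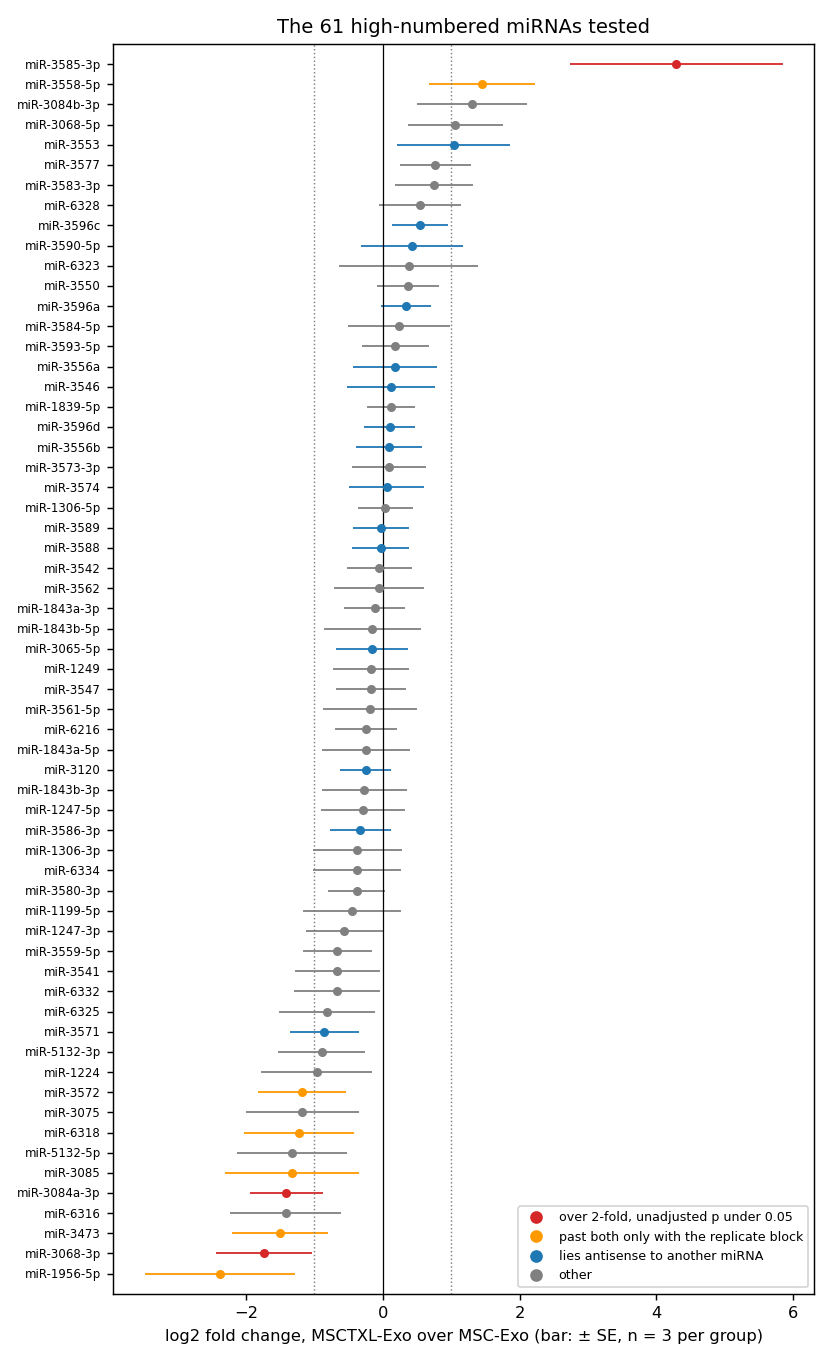
log2 fold change of MSCTXL-Exo over MSC-Exo for the 61 high-numbered miRNAs tested, with bars of ± 1 SE (n = 3 per group) and dotted lines at 2-fold; colours mark the 3 past fold and p (red), those past both only with the replicate block (orange) and the antisense members (blue). The points run from −2.38 for miR-1956-5p to 4.29 for miR-3585-3p, and the antisense members lie between −0.86 and 1.04.

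Deviations from the group means correlated between libraries of the same number at 0.434, 0.179 and 0.70 for 10, 12 and 13, only weakly for 12. Correlations between different numbers are not given here. The number was also used as a replicate block, and with it 8 members passed the same fold and p: 1 higher, miR-3558-5p, and 7 lower. They were 13.1% of the members tested, beside 7.4% of all miRNAs (1.53% higher and 5.87% lower). The 7 lower were miR-1956-5p, miR-3068-3p, miR-3084a-3p, miR-3085, miR-3473, miR-3572 and miR-6318. 2 of the 8, miR-3068-3p and miR-3084a-3p, were also called without the block. No member had an adjusted p under 0.05 in the blocked fit of edgeR with Benjamini-Hochberg adjustment (0.255% of all miRNAs did), the smallest being 0.112. Without both libraries 10, 12 or 13 in turn, an alternative chosen after the data were seen, the blocked fit called 7, 11 and 9 members. miR-1956-5p, miR-3084a-3p and miR-3085 were among them each time. Without libraries 10, miR-3068-3p and miR-3473 were not called, the latter with a blocked log2 fold change of −0.71.

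miR-1956-5p had the lowest log2 fold change of all members tested. It was at 3776, 2581 and 159 CPM in MSC-Exo 10, 12 and 13 (1953, 1832 and 147 UMIs), and at 602, 572 and 81.1 CPM in MSCTXL-Exo (241, 461 and 125 UMIs). Within each group library 13 was far below the other two, and within each library number MSCTXL-Exo was the lower. The log2 fold change was −2.38 (SE 1.09, unadjusted p = 0.0624 in edgeR's quasi-likelihood test) without the block and −1.95 (SE 0.35) with it. With 1 library left out of the unblocked fit it was called only without MSC-Exo 13, at −2.98. In the blocked fit of DESeq2 its adjusted p was 2.68e-05, 1 of 4 members called there beside 2.81% of all miRNAs. Its other arm, miR-1956-3p, had 0 to 7 UMIs per library.

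miR-3473 was at 3567, 1000.3 and 537 CPM in MSC-Exo 10, 12 and 13, and at 857, 597 and 348 CPM in MSCTXL-Exo. It was highest in MSC-Exo 10, and each MSCTXL-Exo library was below its namesake. The log2 fold change was −1.50 (SE 0.70), and −1.14 (SE 0.33) with the block, where it was called. Without MSC-Exo 10 it was −0.38, and without MSC-Exo 13 it was −1.95 and called. miR-3085 was at 255, 116 and 28.1 CPM in MSC-Exo and 107, 45.9 and 9.73 CPM in MSCTXL-Exo, and its difference was nearly the same in each library number, at −1.25, −1.33 and −1.53 on the log2 scale. Its log2 fold change was −1.33 (SE 0.98) without and −1.35 (SE 0.30) with the block. The unblocked value was −0.47 without MSC-Exo 10. The blocked fit of DESeq2 gave adjusted p = 0.0422 for miR-3473, 0.0422 for miR-3085 and 0.0243 for miR-3068-3p.

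The remaining members called with the block had few UMIs or smaller differences. miR-3558-5p had 6, 13 and 7 UMIs in MSC-Exo 10, 12 and 13, and 8, 58 and 16 in MSCTXL-Exo, with a blocked log2 fold change of 1.18. Without MSCTXL-Exo 12 its unblocked value went from 1.45 to 0.17. miR-3572 had 15, 16 and 10 UMIs in MSC-Exo and 3, 13 and 6 in MSCTXL-Exo, with a blocked log2 fold change of −1.17. miR-6318, for which no sequence is printed, had 112, 155 and 34 UMIs in MSC-Exo and 19, 101 and 43 in MSCTXL-Exo. Its blocked log2 fold change was −1.10. The blocked call of miR-3572 was lost in DESeq2 and without libraries 10, 12 or 13. That of miR-3558-5p was lost in DESeq2 and without libraries 10 or 12, and that of miR-6318 without libraries 10. Without the block and with 1 library left out, miR-3558-5p was called only without MSCTXL-Exo 13 (1.84), miR-3572 only without MSCTXL-Exo 12 (−1.99), and miR-6318 only without MSC-Exo 13 (−1.77) or MSCTXL-Exo 12 (−2.09). Within all 3 library numbers 15 members (24.6%) were lower in MSCTXL-Exo, beside 18.4% of all miRNAs, and 6 (9.84%) were higher, beside 13.8%.

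**Figure D5:**
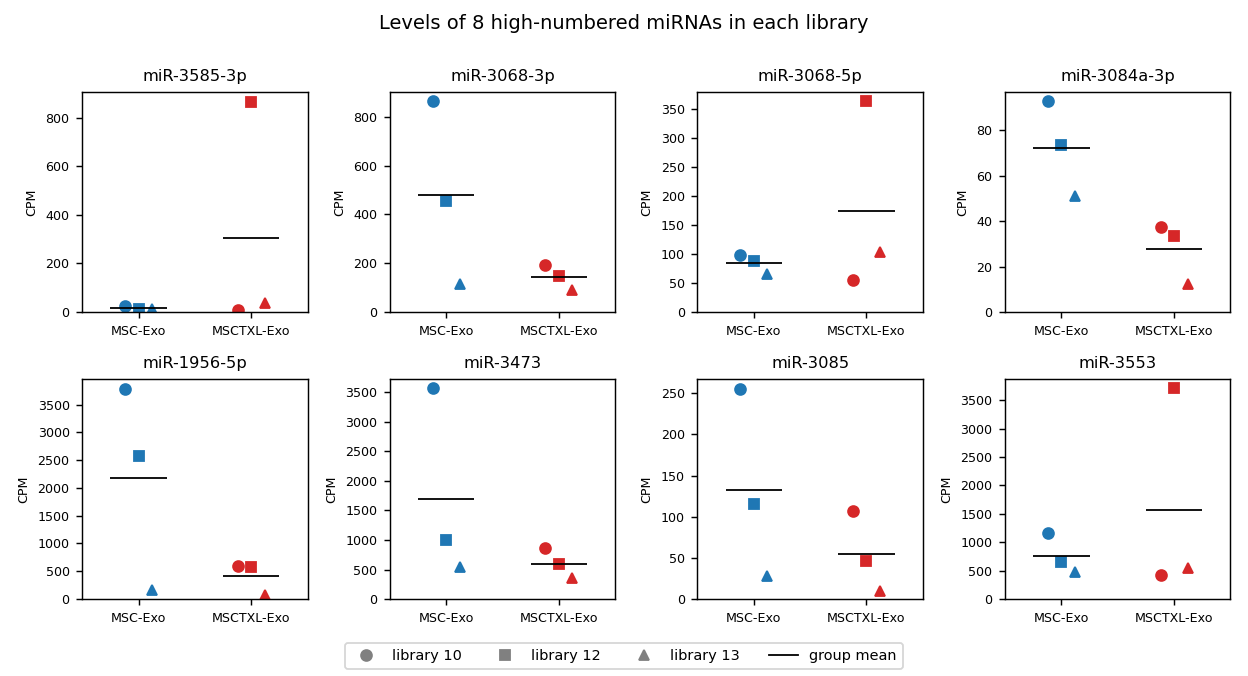
Level (CPM, linear axes) of 8 high-numbered miRNAs in each library, with circle, square and triangle for libraries 10, 12 and 13 and a line at each group's mean. The groups are apart only for miR-3084a-3p (50.9 to 92.8 against 12.3 to 37.5 CPM), counted without miR-3084b-3p, which shares its positions. miR-3585-3p, miR-3068-5p and miR-3553 are highest in MSCTXL-Exo 12 and miR-3473 in MSC-Exo 10.

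The antisense members and the others differed in where they were high. Of the 15 antisense members tested, 9 had a positive and 6 a negative log2 fold change, with a median of 0.09, and 0 were called with or without the block, beside 3.57% and 7.4% of all miRNAs. With the block but without libraries 12, miR-3571 was called. Of the 46 others, 14 were positive and 32 negative, with a median of −0.26, and all calls named above were among them. MSC-Exo 10 held the highest level of 29 of these 46 (63.0%) and of 1 of the 15 antisense members, beside 28.1% over all miRNAs. MSC-Exo 13 held the highest of 8 of the 15 antisense members (53.3%), beside 11.2% over all miRNAs. In 11 of the pairs both strands were tested. The signs were the same in 8 of these, and the log2 fold changes of member and partner differed by a median of 0.19 and at most by 0.67. That largest gap was between miR-3553 (1.04, SE 0.82) and miR-183-5p (0.37, SE 0.56), and the value of miR-3553 turned to −0.65 without MSCTXL-Exo 12.

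2 libraries held sharply raised sets of members. In MSC-Exo 10, 7 of the 61 tested members (11.5%, beside 7.14% of all miRNAs) were over 2-fold above every other library: miR-1224, miR-3075, miR-3085, miR-3473, miR-3541, miR-5132-5p and miR-6316. miR-1224, which lies within Vwa5b2 and is known as a miRNA made from an intron without the usual first cut, was at 340 CPM there, 31.4 to 155 CPM in the other MSC-Exo libraries and 41.5 to 120 CPM in MSCTXL-Exo. In MSCTXL-Exo 12, 5 members (8.20%, beside 4.34% of all miRNAs) stood as far above: miR-3068-5p, miR-3084b-3p, miR-3553, miR-3558-5p and miR-3585-3p. miR-3553 was at 1162, 655 and 473 CPM in MSC-Exo 10, 12 and 13, and at 430, 3710 and 551 CPM in MSCTXL-Exo. It was the only antisense member to stand out in this way, and without that library the other values of both groups overlapped. No member stood over 2-fold above the rest in the other 4 libraries.

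The arms of a hairpin did not always move together. For the 16 hairpins with at least 10 UMIs over both arms in every library, the 3p share was compared by an exact permutation test (two-sided), whose smallest possible p with 3 libraries against 3 is 0.1. The 3p arm of miR-3068 took 89.8%, 83.9% and 63.6% of the hairpin's UMIs in MSC-Exo 10, 12 and 13, and 77.8%, 28.9% and 47.2% in MSCTXL-Exo (exact permutation p = 0.2). The exact 95% interval for MSCTXL-Exo 12 was 24.6% to 33.5%, so that the 5p arm was the larger there and the 3p arm in MSC-Exo, beyond counting error. The means were 79.1% ± 13.7 and 51.3% ± 24.7 (SD, n = 3). The 3p share of miR-3583 was 69.6% to 80.0% in MSC-Exo and 83.6% to 91.3% in MSCTXL-Exo, and its exact permutation p was 0.1. miR-1956, miR-3590 and miR-3593 also reached this smallest p, and all 4 had a Benjamini-Hochberg adjusted p of 0.4 over the 16 hairpins. The smaller arm of each had few UMIs per library. The 3p arm had 0 to 2 for miR-3590, 0 to 7 for miR-1956 and 5 to 15 for miR-3593, and the 5p arm of miR-3583 had 2 to 11. miR-5132 gave mostly its 3p arm throughout, with 58.3% to 82.1%.

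Other members that were abundant or came from small RNA genes were called neither with nor without the block. miR-1839-5p, which RefSeq lists under Scarna15, a small Cajal body RNA gene, was at 110.2, 97.2 and 116 CPM in MSC-Exo 10, 12 and 13, and at 132, 102 and 118 CPM in MSCTXL-Exo. Its 6 values lay close together, with a log2 fold change of 0.12 (SE 0.36). miR-1843a-3p, from Scarna3, was at 26.0 to 48.3 and 25.3 to 47.5 CPM, with a log2 fold change of −0.12 (SE 0.45), and miR-1843b-3p, which has the same seed CUGAUCG, stood at −0.27 (SE 0.62). Of the 6 members from small nucleolar or Cajal body RNA genes 5 were tested, and only miR-3068-3p was called with or without the block, 20% of these 5 beside 3.57% and 7.4% of all miRNAs. miR-3561-5p was at 694, 747 and 329 CPM in MSC-Exo and 937, 506 and 118 CPM in MSCTXL-Exo, with a log2 fold change of −0.19 (SE 0.69). miR-6325 had −0.81 (SE 0.70), which was −0.07 without MSC-Exo 10 and −1.54 without MSCTXL-Exo 12. miR-1247-5p had −0.30 (SE 0.61), which was 0.05 without MSC-Exo 10. miR-5132-3p was lower in MSCTXL-Exo within all 3 library numbers, with a log2 fold change of −0.90 (SE 0.63), −0.89 (SE 0.29) with the block and −0.41 without MSC-Exo 10.

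Of the 21 members on the list of numbers also in use in human, which may be incomplete, 13 were tested. Of these, 1 had a positive and 12 had a negative log2 fold change. Their median was −0.25, beside −0.04 for the 48 tested members with other numbers. Without the block 0 were called, beside 3.57% of all miRNAs, and with it 1 was, miR-3085 (7.69%, beside 7.4%). MSC-Exo 10 held the highest level of 10 of the 13. The 1 positive value was the 0.03 (SE 0.40) of miR-1306-5p, which is cut from the transcript of Dgcr8, the partner of Drosha in miRNA processing. It was at 110.2, 67.6 and 67.1 CPM in MSC-Exo and 97.4, 69.5 and 83.7 CPM in MSCTXL-Exo.

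The 64 members that did not pass the filter had 1 to 65 UMIs in all 6 libraries together, with a median of 22.5, and the test did not cover them. When all were tested, with no filter, miR-3084a-1-5p also passed fold and unadjusted p, with 3, 2 and 3 UMIs in MSC-Exo 10, 12 and 13 and 1, 40 and 5 in MSCTXL-Exo, so that it was high in MSCTXL-Exo 12 alone. Among them were the miRNAs hosted by Htr2c, a serotonin receptor gene of the brain: miR-1298 had 35 UMIs in all, miR-3552 had 33, miR-1912-3p had 10 and miR-1912-5p had 1. Detection followed depth only in part. The number of members with at least 1 UMI was 120, 116 and 116 in MSC-Exo 10, 12 and 13, and 108, 120 and 122 in MSCTXL-Exo. At the smallest library total, 382665 UMIs, the expected numbers were 118, 106 and 103 in MSC-Exo and 108, 112 and 101 in MSCTXL-Exo, so that MSC-Exo 10 then held the most members and libraries 13 the fewest of each group.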

How the data were processed

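The authors deposited UMI counts of mature miRNAs per library, made with the QIAseq miRNA Library Kit. Trimming with cutadapt 2.7 and alignment with Bowtie 1.2.2 are named in the submitters' processing notes. The genome build, the miRNA annotation and the use of strand are not given in the sources used here. UMIs remove PCR copies but not differences in ligation between sequences, so levels of different miRNAs compare less surely than 1 miRNA between libraries. The table has 833 lines for 749 miRNAs, and 1 line was kept for a miRNA with several positions. The authors' CPM, in 6 further columns, was left out. Columns with M were taken as MSC-Exo and those with T as MSCTXL-Exo. Which title each number (10, 12 or 13) belongs to is not known.

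All 749 miRNAs entered edgeR 4.0.16 (R 4.3.3) with TMM factors (0.861 to 1.144) and filterByExpr by group, and the quasi-likelihood test compared 3 libraries with 3. Calls used the thresholds of the study's methods (unadjusted p under 0.05 and more than 2-fold), then a Benjamini-Hochberg adjusted p under 0.05. The SE is the log2 fold change divided by the square root of F. After subtraction of group means, libraries numbered 10, 12 and 13 correlated with their namesakes at 0.434, 0.179 and 0.70, so the number also served as a replicate block. Chi-square per degree of freedom was 36.7 to 141 for 2 libraries of the same group, so none was the same library deposited again. Repeat libraries of 1 RNA sample cannot be told from separate ones by this. Alternatives were DESeq2 1.42.0, limma-voom (limma 3.58.1), other scalings and filters, and each library left out. The fits were also run on simulated counts, whose outcome is not given here. These had 1 common spread for all miRNAs and no effect of the library number. They therefore do not test whether the block suits these libraries.

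The members and lists were chosen with earlier results of these data known. Named members were those given as examples with the rule, the 15 most abundant, those called with or without the block, those whose groups did not overlap, their other arms, and tested members that lie antisense to a miRNA or share a seed with a lower number. Those outside these kinds, among them miR-3596b, miR-3587, miR-1839-5p, miR-1224, the other members raised in MSC-Exo 10, miR-3084b-3p, the members hosted by Htr2c and those named for arm shares, were chosen after their values were seen.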

Additional observations from a re-analysis of the deposited data

How the results depend on the processing

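The median log2 fold change of the members stayed negative under every alternative tried, but counts of calls moved. The 3 members past fold and unadjusted p became 5 with DESeq2, 1 with limma-voom, 5 with upper quartile factors and 6 with no filter, and 0 to 11 with 1 library left out (1 without MSC-Exo 10, 0 without MSC-Exo 12, 11 without MSC-Exo 13). Over all miRNAs, 14 became 24 with DESeq2, 9 with limma-voom, 34 with no filter, 6 with at least 10 UMIs in every library, and 6 to 38 with 1 library left out. With the replicate block, members called were 8 in edgeR, 7 in DESeq2 and 9 in limma-voom, and all miRNAs called were 29, 28 and 33. Leaving out both libraries 10, 12 or 13 from the blocked fit gave 7, 11 and 9 members and 22, 39 and 37 miRNAs. At an adjusted p under 0.05, 0 members became 4 in the blocked fit of DESeq2 and 2 in that of edgeR without libraries 12. With the 12 miRNAs of chromosome 6 included, the mean share of UMIs went from 3.04% to 4.80% in MSC-Exo and from 2.79% to 3.23% in MSCTXL-Exo. By library it was then 7.36%, 3.45% and 3.60% in MSC-Exo 10, 12 and 13, and 3.56%, 3.42% and 2.72% in MSCTXL-Exo. The rise was largest in MSC-Exo 10, from 2.95%. At the smallest library total, the mean number of members detected went from 117 to 109 in MSC-Exo and from 117 to 107 in MSCTXL-Exo. The cause of these changes was not tested. These alternatives were followed for 32 named members that were tested, among them miR-3084b-3p, which was chosen after its values were seen. Of those called without the block 0 changed sign, but 15 others, called neither with nor without the block, had a log2 fold change of either sign. With 1 library left out, the ranges were −0.78 to 0.050 for miR-1247-5p, −0.55 to 0.17 for miR-3065-5p, −0.082 to 1.49 for miR-3068-5p, −0.13 to 1.70 for miR-3084b-3p, −0.28 to 0.51 for miR-3546, −0.65 to 1.496 for miR-3553, −0.18 to 1.06 for miR-3556a, −0.24 to 0.76 for miR-3556b, −0.90 to 0.25 for miR-3561-5p, −0.23 to 0.69 for miR-3574, −0.39 to 0.48 for miR-3588, −0.23 to 0.15 for miR-3589, −0.31 to 1.44 for miR-3590-5p, −0.00090 to 0.71 for miR-3596a and −0.23 to 0.40 for miR-3596d. In the blocked fit without libraries 10, the sign changed for miR-3546 (−0.12), miR-3556a (−0.16), miR-3556b (−0.18), miR-3574 (−0.19) and miR-3596d (−0.087). Without libraries 12 it changed for miR-3065-5p (0.15), miR-3068-5p (−0.044), miR-3084b-3p (−0.12), miR-3553 (−0.63), miR-3588 (0.16) and miR-3589 (0.16), and without libraries 13 for miR-3588 (0.37). miR-3588 was also positive with limma-voom (0.10), upper quartile factors (0.0054) and the block in edgeR (0.12) and DESeq2 (0.11), and miR-3589 with upper quartile factors (0.024). With 3 libraries a group and a replicate spread far above counting error, members of few UMIs limit what could be seen.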
